A study of Mus musculus with 24 samples.

Results

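The 10 genes described here govern entry into and exit from the G1 phase of the cell cycle. They comprise the 3 D-type cyclins (Ccnd1, Ccnd2, Ccnd3), the kinases these activate (Cdk4, Cdk6), 2 inhibitors of such kinases (Cdkn1b, encoding p27, and Cdkn2c, encoding p18) and the 3 retinoblastoma family proteins that the kinases phosphorylate (Rb1, Rbl1, Rbl2). They were chosen by name, as genes of G1 entry and quiescence, out of 55414 genes listed in the files. Read counts were found for 10 of the 10 in each of 24 libraries, and 10 passed the filter on low counts in every fit.

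The libraries hold RNA of bone marrow cells of C57BL6/J mice that were Srcap mutant or WT. The SRCAP protein is a chromatin remodeller known for exchanging histone H2A for its variant H2A.Z. Of the mutant allele the sources add only the words het, in the headers of the untreated, doxorubicin and 20-week files, and Mut, in those of the 2-week files. Hematopoietic stem and progenitor cells (HSPCs, marked LSK in the file headers, after the lineage-negative, Sca-1+, Kit+ gate) came from mice 12 hours after doxorubicin, from untreated mice, from mice 2 weeks after transplantation and, as CD45.2+ donor cells per the series design text, from mice 20 weeks after competitive transplantation. Cells labelled B cells and T cells were taken from marrow 2 weeks after transplantation. Each of the 12 groups of cell label, condition and genotype has 2 libraries, so p-values measure only the spread between these libraries, and whether each came from 1 animal or from a pool is not given in the sources used here.

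D-type cyclins are made in response to growth signals and bind CDK4 or CDK6. The active kinases phosphorylate the retinoblastoma protein RB and its relatives p107 and p130, which releases E2F transcription factors and lets the genes of DNA replication be read. p27 binds cyclin and CDK complexes and p18 binds CDK4 and CDK6 themselves, and both are known in blood stem cells as brakes on cycling. CDK6 is known to time the exit of blood stem cells from quiescence, and cyclin D3 is known to be needed for the expansion of early lymphocytes and of granulocytes.

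Total counts ran from 26369992 to 78432483 fragments a library, which put between 189 and 6514 counts on Ccnd1, one of the lower members, in a library. Levels are given as CPM (a gene's count per 1000000 counts of the library) and, between genes, as FPKM (CPM per kilobase of exon). The exon length is that of all exons annotated for a gene, so FPKM compared between genes depends on the annotation. Kit ran from 311 to 601 CPM in HSPC libraries and Cd79a from 1033 to 1352 CPM in B cell libraries. The libraries labelled T cells went against their label, with 0.0883 to 1.56 CPM of the T cell receptor complex gene Cd3e but 20636 to 26152 CPM of the neutrophil gene S100a8. Their 10 neutrophil markers summed to 133563 to 152568 CPM, against 3500 to 12496 CPM in B cell libraries and 51.2 to 23113 CPM in HSPC libraries, and they are called libraries labelled T cells below. Among the HSPC libraries, WT untreated replicate 1 stood apart with 23113 CPM of these markers, where the other 3 untreated libraries had 143 to 399 CPM. Srcap RNA overlapped between genotypes, at 2.83 to 13.7 CPM in mutant and 6.11 to 14.4 CPM in WT HSPCs. The file headers place untreated and doxorubicin HSPCs in 1 directory, 20-week HSPCs in another and all 2-week libraries in one of their own, and the 2-week libraries are female by Xist, with Ddx3y at 0 to 0.0194 CPM in HSPCs and B cells, while other HSPC libraries are male by both genes. Differences between transplanted and untreated HSPCs, and between 2 and 20 weeks, cannot be told apart from that of the directories and, for 2 weeks, of sex.

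Between 5 and 9 of the 10 genes differed in each comparison of cell labels or of transplanted with other HSPCs, and none passed the threshold after doxorubicin or between genotypes in edgeR. By edgeR's quasi-likelihood test with an adjusted p under 0.05 over all genes tested, 8 members differed between B cells and HSPCs at 2 weeks, 4 higher and 4 lower in B cells, in a comparison that called 53.9% of all genes, 28.3% higher and 25.5% lower. Between libraries labelled T cells and HSPCs 9 differed, 5 higher and 4 lower, where 61.9% of all genes were called, 32.6% higher and 29.3% lower. Between B cells and libraries labelled T cells 5 differed, 3 higher and 2 lower, where 52.9% were called, 27% higher and 25.9% lower. In 2-week against untreated HSPCs 3 rose and 2 fell, where 46.1% of genes were called, 21.2% higher and 24.9% lower. In 20-week against untreated HSPCs 2 rose and 4 fell, where 23.6% were called, 13.1% higher and 10.6% lower, and without WT untreated replicate 1 the count was 4 in place of 6. In 20-week against 2-week HSPCs 3 rose and 4 fell, where 42% were called, 23% higher and 19% lower. In these fits the members' share lay near that of all genes in B cells against libraries labelled T cells and in 2-week against untreated HSPCs, and above it in the other comparisons. For 20-week against 2-week HSPCs this depended on the fit. With total counts as the sole scaling 4 members and 8823 of 19522 genes were called. A fit on just the compared groups called 3 members and 6845 of 18096 genes. In neither did the members' share lie above that of all genes. In bulk RNA, fewer cells of a type and less RNA per cell cannot be told apart, and this holds for each difference below.

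**Figure D1:**
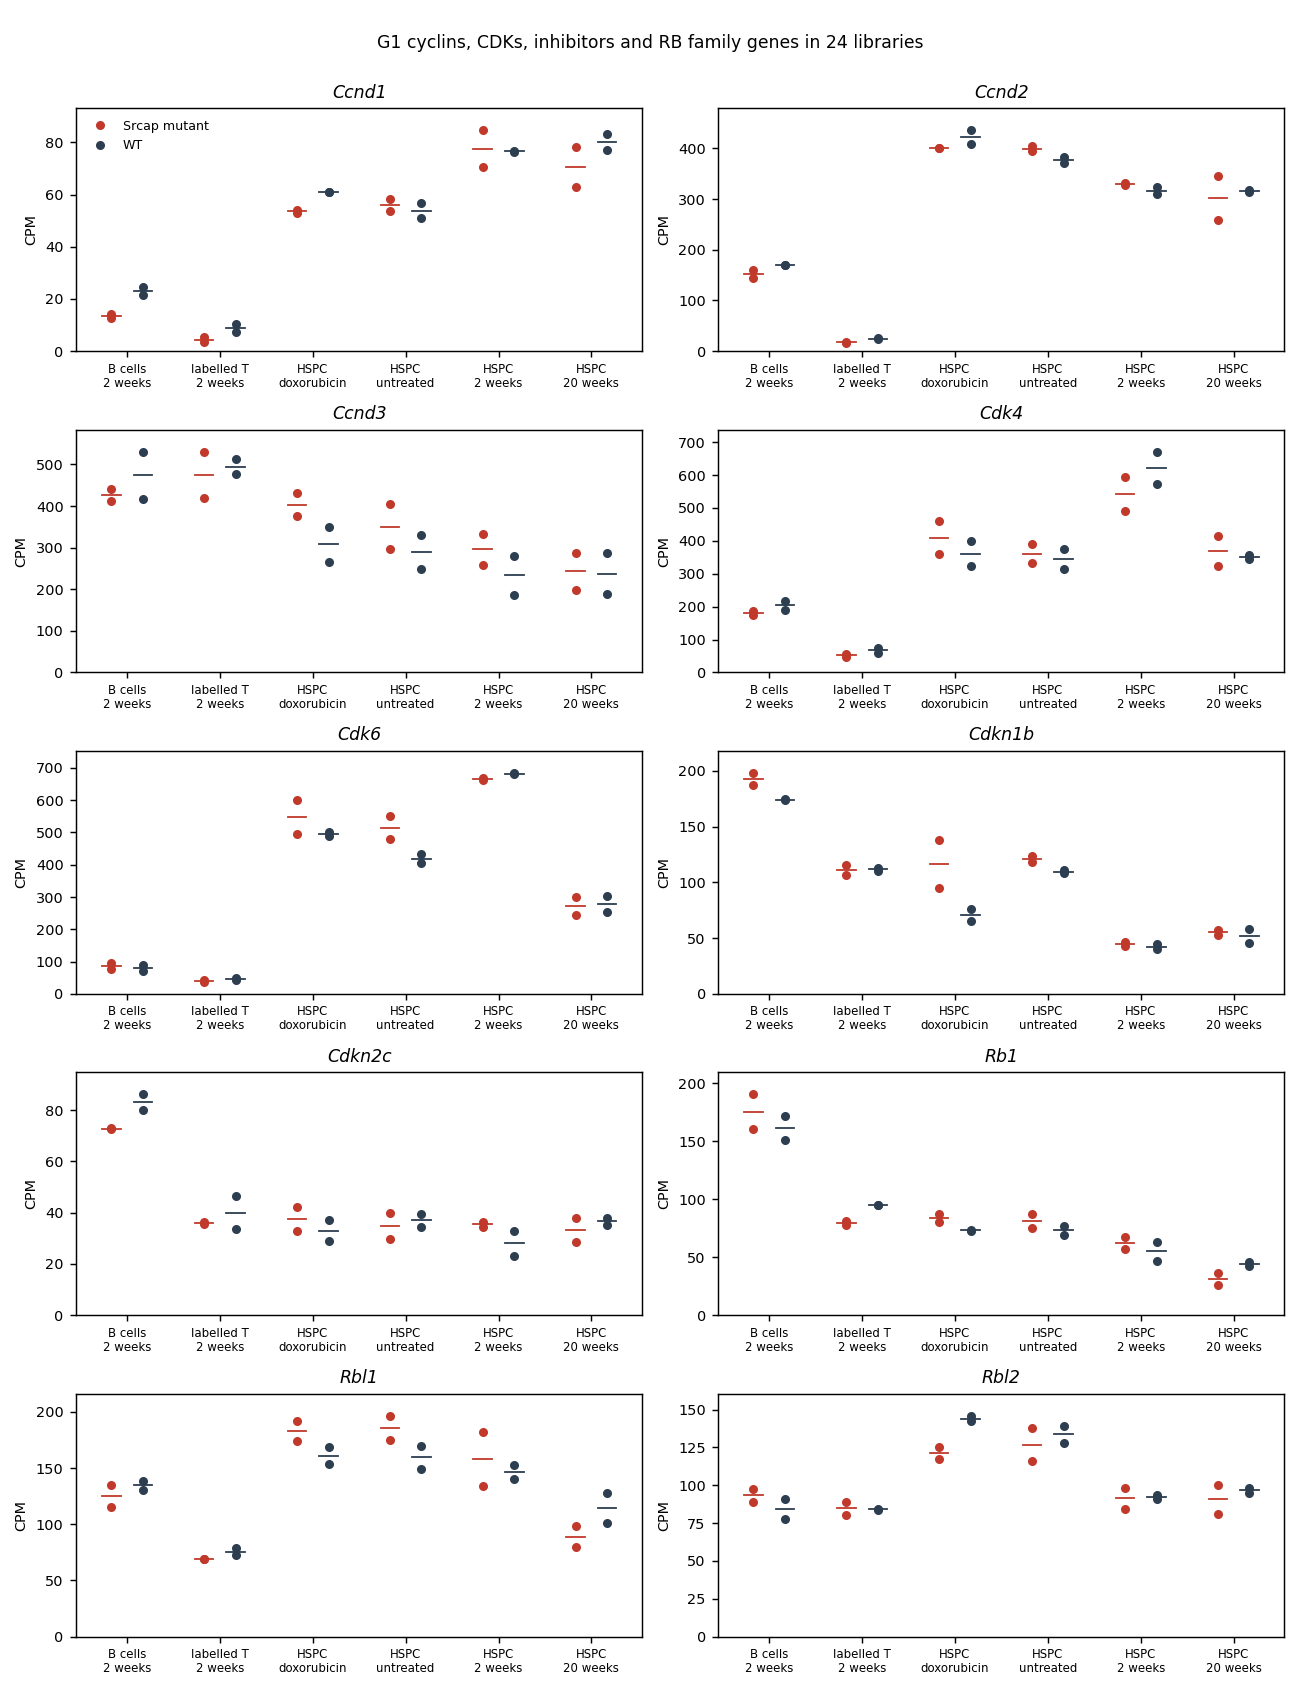
Levels of the 10 genes in 24 libraries, in CPM on the y axis, by cell label and condition on the x axis, with Srcap mutant libraries in red left of WT libraries in dark blue. Each point is a library and each bar the mean of 2. Ccnd1, Ccnd2, Cdk4 and Cdk6 sit lowest in B cells and in libraries labelled T cells, and Cdkn1b sits lowest in HSPCs at 2 and 20 weeks.

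The D-type cyclins differed in opposite directions between lineages. Cyclin D1 is encoded by Ccnd1 (chr7:144483668-144493662, - strand in GRCm39, the build of the files' coordinates). B cell libraries had 12.7 and 14.3 CPM of Ccnd1 in mutants and 21.3 and 24.6 CPM in WT, and libraries labelled T cells had 3.34 and 5.37 CPM in mutants and 7.27 and 10.3 CPM in WT. HSPCs of the same time had 70.7 and 84.6 CPM in mutants and 76.9 and 76.3 CPM in WT. The 3 sets do not overlap, with libraries labelled T cells lowest and HSPCs highest. Ccnd1 was lower in B cells than in HSPCs by a log2 fold change of -2.00 (SE 0.16, edgeR adjusted p = 1.04e-07), and lower in libraries labelled T cells by -2.80 (SE 0.17, adjusted p = 2.24e-09).

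Cyclin D2 is encoded by Ccnd2 (chr6:127102125-127129156, - strand). It reached 144 to 170.1 CPM in the 4 B cell libraries and 16.2 to 26.7 CPM in the 4 labelled T cells, against 309.6 to 331 CPM in 2-week HSPCs. None of these ranges overlap. The log2 fold changes were -0.88 in B cells (SE 0.089, edgeR adjusted p = 1.12e-06) and -3.12 in libraries labelled T cells (SE 0.096, adjusted p = 5.03e-12).

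Cyclin D3, encoded by Ccnd3 (chr17:47815976-47910616, + strand), ran the other way. B cells had 411 and 439.8 CPM in mutants and 530.4 and 417 CPM in WT. Libraries labelled T cells had 529 and 418 CPM in mutants and 513 and 476 CPM in WT, while 2-week HSPCs had 333 and 259 CPM in mutants and 187 and 279 CPM in WT. Every B cell library and every library labelled T cells lies above the 4 HSPC libraries of that time. Ccnd3 rose by 0.89 in B cells (SE 0.15, edgeR adjusted p = 0.000245) and by 1.72 in libraries labelled T cells (SE 0.15, adjusted p = 4.88e-07) on the log2 scale, the second being 0.88 with total counts as the sole scaling. A pseudogene named Ccnd3-ps exists, and how the authors' counting divides reads that match both is not given in the sources used here.

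Per length of exon, Ccnd3 made up 67.1% to 72.9% of the summed FPKM of the 3 D cyclins in B cells and 91.5% to 96.1% in libraries labelled T cells. In HSPCs it made up 30.2% to 43.0% at 2 weeks, and over all HSPC libraries 29.8% to 47.7%. The summed FPKM itself differed less, at 64.9 to 83.0 in B cells and 50.8 to 62.7 in libraries labelled T cells, against 70.5 to 88.2 in 2-week HSPCs. Ccnd1 made up 4.17% to 7.37% in B cells and 1.13% to 3.71% in libraries labelled T cells.

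Among HSPCs, Ccnd1 was the only D cyclin called between conditions under the trimmed-mean (TMM) scaling used here. Untreated HSPCs had 53.7 and 58.5 CPM in mutants and 50.9 and 56.7 CPM in WT. At 20 weeks Ccnd1 reached 63.1 and 78.2 CPM in mutants and 77.1 and 83.1 CPM in WT. The 8 libraries of 2 and 20 weeks lie above the 4 untreated ones, and the doxorubicin libraries, at 53.1 to 61.0 CPM, overlap with them. Ccnd1 rose by 0.57 at 2 weeks (SE 0.11, edgeR adjusted p = 0.000321) and by 0.82 at 20 weeks (SE 0.11, adjusted p = 6.57e-05) on the log2 scale, relative to untreated HSPCs. With total counts as the sole scaling the change at 20 weeks was 0.45. Its share of the summed D cyclin FPKM ran from 12.3% to 14.9% in untreated HSPCs, from 17.02% to 23.1% at 2 weeks and from 18.2% to 23.0% at 20 weeks.

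Ccnd2 and Ccnd3 passed no test among HSPC conditions under TMM scaling. Ccnd2 ran from 372 to 404.6 CPM in untreated HSPCs, from 309.6 to 331 CPM at 2 weeks and from 259 to 345 CPM at 20 weeks, while its log2 fold changes against untreated were -0.18 at 2 weeks (edgeR adjusted p = 0.203) and 0.03 at 20 weeks (adjusted p = 0.876). With total counts as the sole scaling, its values were -0.27 at 2 weeks (adjusted p = 0.0341) and -0.33 at 20 weeks (adjusted p = 0.0136). Ccnd3 varied most between libraries of a group, with 247.7 to 404.6 CPM in untreated HSPCs and an SE of 0.21 on each of its log2 fold changes between conditions.

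**Figure D2:**
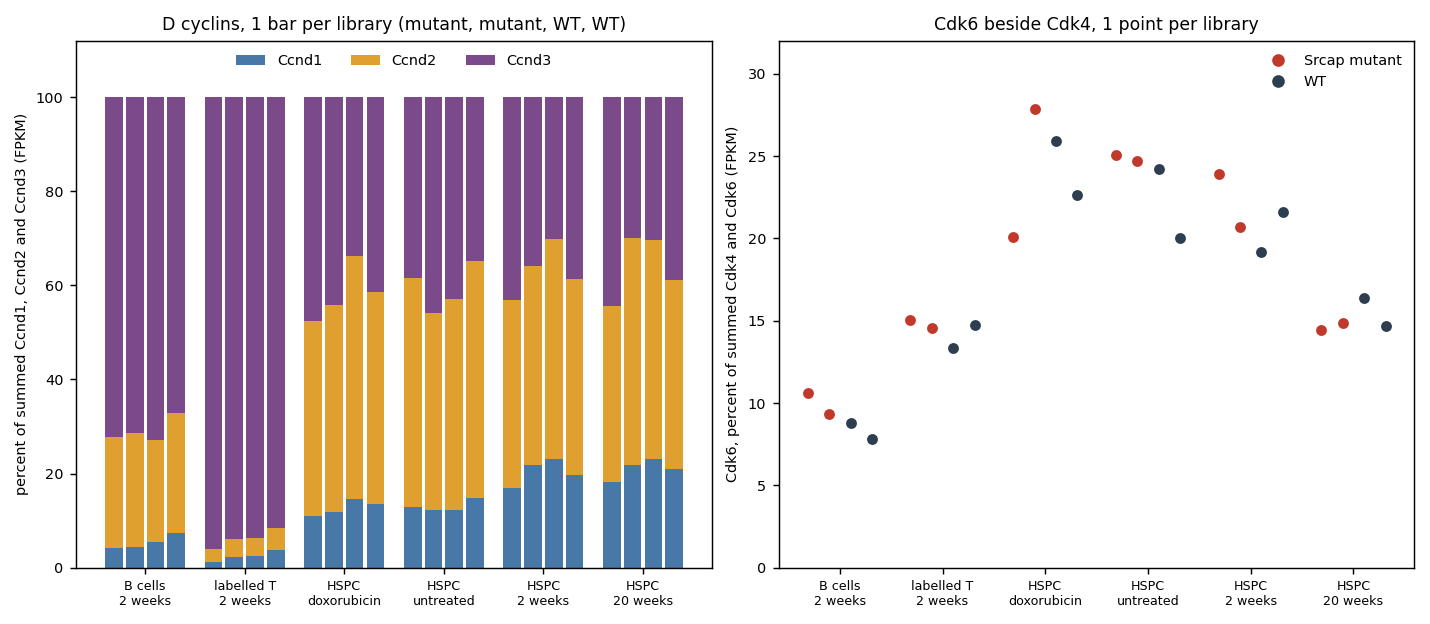
Left, percent of the summed FPKM of the 3 D cyclins on the y axis, as 1 stacked bar per library, ordered mutant, mutant, WT, WT within each cell label and condition on the x axis. Right, Cdk6 as a percent of the summed FPKM of Cdk4 and Cdk6 on the y axis, with 1 point per library. Ccnd3 takes 91.5% to 96.1% in libraries labelled T cells, and Cdk6 takes 7.79% to 10.6% in B cells against 19.1% to 23.9% in 2-week HSPCs.

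The D cyclins' kinase partners were both lower in B cells and in libraries labelled T cells than in HSPCs. Cdk4 (chr10:126899403-126903789, + strand) had 186 and 175 CPM in mutant and 218 and 190.4 CPM in WT B cells. Libraries labelled T cells had 54.9 and 48.4 CPM in mutants and 75.8 and 57.9 CPM in WT, and 2-week HSPCs had 489.7 and 595 CPM in mutants and 671 and 573 CPM in WT. These sets do not overlap. The log2 fold changes were -1.47 in B cells (SE 0.11, edgeR adjusted p = 4.09e-08) and -2.46 in libraries labelled T cells (SE 0.11, adjusted p = 1.17e-10).

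Cdk6 (chr5:3391485-3581008, + strand) showed the largest difference of the 10 genes between B cells and HSPCs. It had 94.9 and 77.9 CPM in mutant and 90.1 and 69.2 CPM in WT B cells. Libraries labelled T cells had 41.8 and 35.4 CPM in mutants and 50.2 and 43.0 CPM in WT, and 2-week HSPCs had 662 and 669 CPM in mutants and 684 and 680.2 CPM in WT. The log2 fold changes were -2.89 in B cells (SE 0.12, edgeR adjusted p = 1.41e-10), which is a 7.44-fold difference, and -3.15 in libraries labelled T cells (SE 0.12, adjusted p = 2.23e-11).

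Both kinases rose in HSPCs at 2 weeks and parted at 20 weeks. Untreated HSPCs had 332 and 390.5 CPM of Cdk4 in mutants and 314 and 375 CPM in WT. At 20 weeks Cdk4 stood at 414 and 323 CPM in mutants and at 358 and 344 CPM in WT, which overlaps with the untreated range, while the 2-week values lie above both. Cdk4 rose by 0.80 at 2 weeks (SE 0.12, edgeR adjusted p = 2.25e-05). At 20 weeks it rose by 0.39 (SE 0.12, adjusted p = 0.026), a call that was lost when any of 4 of the 8 libraries was left out, at 0.30 to 0.33, and with total counts as the sole scaling, at 0.03 (adjusted p = 0.909). Those 4 are replicate 1 of the WT untreated, mutant untreated and mutant 20-week groups and replicate 2 of the WT 20-week group.

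Cdk6 had 478 and 552 CPM in mutant and 433 and 404 CPM in WT untreated HSPCs. Its 2-week values, given above, exceed all of these, while at 20 weeks 299.9 and 243 CPM in mutants and 302 and 255 CPM in WT all lie below them. Cdk6 rose by 0.62 at 2 weeks (SE 0.099, edgeR adjusted p = 4.2e-05) and fell by 0.40 at 20 weeks (SE 0.099, adjusted p = 0.00637) against untreated HSPCs, and it was lower at 20 than at 2 weeks by -1.03 (SE 0.10, adjusted p = 2.14e-07), the largest difference of the 10 genes between these times. Cdk4 was lower at 20 than at 2 weeks by -0.42 (SE 0.12, adjusted p = 0.0087). With total counts as the sole scaling Cdk6 stood at -0.76 at 20 weeks against untreated HSPCs, and Cdk4 at -0.69 against 2 weeks.

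Per length, Cdk4 exceeded Cdk6 in all 24 libraries, by 8.43 to 11.8 times in B cells and 5.66 to 6.49 times in libraries labelled T cells. In HSPCs the ratio of their FPKM was 2.59 to 3.99 after doxorubicin. It was 2.99 to 3.99 in untreated HSPCs, 3.19 to 4.22 at 2 weeks and 5.11 to 5.94 at 20 weeks, where it lay above every other HSPC library. These ratios rest on annotated exon lengths of 3249 bases for Cdk4 and 13989 for Cdk6. In CPM, Cdk6 exceeded Cdk4 in every untreated, doxorubicin and 2-week HSPC library. Cdk4 was the higher in CPM at 20 weeks, in B cells and in libraries labelled T cells.

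The inhibitors were higher in B cells and in libraries labelled T cells than in HSPCs of that time. Cdkn1b (chr6:134897364-134902476, + strand) had 198 and 188 CPM in mutant and 174 and 175 CPM in WT B cells. Libraries labelled T cells had 116 and 107 CPM in mutants and 110.4 and 113 CPM in WT, while 2-week HSPCs had 42.6 and 46.2 CPM in mutants and 44.7 and 40.2 CPM in WT. No set overlaps with another. The log2 fold changes were 2.21 in B cells (SE 0.082, edgeR adjusted p = 7.3e-11) and 2.20 in libraries labelled T cells (SE 0.082, adjusted p = 2.14e-11), and the second was 1.36 with total counts as the sole scaling.

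Cdkn1b was also the member with the largest difference between 2-week and untreated HSPCs. Untreated HSPCs had 124 and 118 CPM in mutants and 108 and 111 CPM in WT. At 20 weeks Cdkn1b stood at 57.5 and 53.2 CPM in mutants and 58.0 and 45.2 CPM in WT, and the 8 libraries of both times lie below the 4 untreated ones. Cdkn1b fell by 1.32 at 2 weeks (SE 0.11, edgeR adjusted p = 3.83e-08) and by 0.75 at 20 weeks (SE 0.11, adjusted p = 0.000143) on the log2 scale. Between the times it was higher at 20 than at 2 weeks by 0.57 (SE 0.11, adjusted p = 0.000449), or by 0.30 (adjusted p = 0.053) with total counts as the sole scaling.

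The promoters of 7 of the 10 genes, each as 250 bases before and 50 after an annotated start, are in the RefSeq table of build GRCm38.p6, and Ccnd1, Ccnd2 and Rb1 had no entry. The 3 windows below belong to Cdk4 and Cdk6, which rose together at 2 weeks, and to Cdkn1b, which fell. Each is written 5′ to 3′ on the gene's strand, with coordinates of GRCm38.p6, unlike those of GRCm39 above, and capitals mark each copy of the E-box CACGTG, a word that MYC and related factors can bind.
Cdk4, chr10:127063285-127063584, + strand: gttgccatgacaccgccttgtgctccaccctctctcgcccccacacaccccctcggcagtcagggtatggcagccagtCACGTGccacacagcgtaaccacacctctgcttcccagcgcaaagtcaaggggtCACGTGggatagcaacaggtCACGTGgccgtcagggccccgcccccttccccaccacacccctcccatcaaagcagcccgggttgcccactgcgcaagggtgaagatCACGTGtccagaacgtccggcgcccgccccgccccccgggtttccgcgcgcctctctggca
Cdk6, chr5:3343643-3343942, + strand: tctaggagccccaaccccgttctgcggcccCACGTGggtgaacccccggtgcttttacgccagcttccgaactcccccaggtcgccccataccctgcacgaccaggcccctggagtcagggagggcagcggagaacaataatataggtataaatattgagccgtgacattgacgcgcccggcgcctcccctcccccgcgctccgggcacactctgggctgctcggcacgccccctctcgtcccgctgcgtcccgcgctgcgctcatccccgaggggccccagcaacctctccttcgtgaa
Cdkn1b, chr6:134920151-134920450, + strand: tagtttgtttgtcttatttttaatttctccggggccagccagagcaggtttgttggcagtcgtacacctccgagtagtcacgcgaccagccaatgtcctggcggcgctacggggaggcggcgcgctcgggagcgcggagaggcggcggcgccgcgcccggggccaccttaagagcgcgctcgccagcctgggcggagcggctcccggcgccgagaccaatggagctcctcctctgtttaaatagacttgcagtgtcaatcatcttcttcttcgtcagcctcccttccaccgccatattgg

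The Cdk4 window holds 4 E-boxes, which start at positions -172, -118, -98 and -11 from the start site, and the Cdk6 window holds 1, at -220. Of 32851 promoter windows of that length 7.15% hold at least 1 such word and 0.0244%, or 8, hold at least 4. Also searched, on both strands, were the E2F words TTTCGCGC, TTTGGCGC and TTTCCCGC, found in 0.323%, 0.514% and 1.07% of all windows, TTTGAA, a core of cell cycle homology regions, in 17.9%, and the FOXO word GTAAACA in 3.65%. Overlap between these words was not resolved, and CACGTG reads the same on both strands. None of the 6 words is in the Cdkn1b window. Rbl1 has TTTCGCGC at -18, the second Cdkn2c start has none and its first has CACGTG at 34, and TTTGAA lies at -201 of Rbl2 and GTAAACA at -243 of the first Ccnd3 start, both on the other strand.

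Cdkn2c (chr4:109518073-109524386, - strand) had 72.5 and 73.1 CPM in mutant and 86.1 and 79.9 CPM in WT B cells, and 33.7 to 46.4 CPM in libraries labelled T cells, against 23.1 to 36.5 CPM in 2-week HSPCs. The B cell libraries lie above all others, while those labelled T cells overlap with HSPCs. Its log2 fold changes were 1.42 in B cells (SE 0.13, edgeR adjusted p = 5.36e-07) and 1.101 in libraries labelled T cells (SE 0.13, adjusted p = 4.36e-06), the second of which was 0.27 (adjusted p = 0.082) with total counts as the sole scaling. Among the 16 HSPC libraries Cdkn2c kept between 23.1 and 42.3 CPM. It was higher at 20 than at 2 weeks by 0.41 (SE 0.15, adjusted p = 0.0369), a call that was lost in 5 of the 8 fits that left out a library.

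The retinoblastoma family split by member between the cell labels. Rb1 (chr14:73421113-73563262, - strand), the tumour suppressor of the family, had 190.5 and 161 CPM in mutant and 172 and 151 CPM in WT B cells. Libraries labelled T cells had 81.6 and 77.9 CPM in mutants and 95.3 and 95.2 CPM in WT, while 2-week HSPCs had 67.1 and 57.2 CPM in mutants and 47.1 and 62.8 CPM in WT. No set overlaps with another. Rb1 rose by 1.65 in B cells (SE 0.12, edgeR adjusted p = 2.8e-08) and by 1.41 in libraries labelled T cells (SE 0.12, adjusted p = 6.65e-08), the second being 0.58 with total counts as the sole scaling.

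Rbl1 (chr2:156987813-157046454, - strand), which encodes p107, passed no test between cell labels under this scaling, at -0.10 in B cells (SE 0.11, edgeR adjusted p = 0.440) and -0.24 in libraries labelled T cells (SE 0.11, adjusted p = 0.0705). Its CPM was 116 to 139 in B cells and 68.7 to 78.8 in libraries labelled T cells, against 134 to 182 in 2-week HSPCs, and with total counts as the sole scaling it was lower in libraries labelled T cells, at -1.07 (adjusted p = 3.2e-07). Rbl2 (chr8:91796685-91850472, + strand), which encodes p130, was higher in libraries labelled T cells by 0.72 (SE 0.089, adjusted p = 5.04e-06), a direction that turned with total counts as the sole scaling, to -0.12. Its CPM there, 80.6 to 89.2, overlaps with the 84.6 to 98.03 CPM of 2-week HSPCs. In B cells Rbl2 had 77.6 to 97.8 CPM and a log2 fold change of 0.08 (SE 0.088, adjusted p = 0.464), or -0.05 with total counts as the sole scaling. Per length, Rb1 made up 43.0% to 48.0% of the summed FPKM of the family in B cells and 35.6% to 40.5% in libraries labelled T cells, against 17.2% to 22.8% in 2-week HSPCs.

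In HSPCs, Rb1 and Rbl1 were lowest at 20 weeks. Untreated HSPCs had 75.5 and 86.9 CPM of Rb1 in mutants and 77.3 and 69.1 CPM in WT. At 20 weeks Rb1 stood at 25.8 and 36.6 CPM in mutants and at 45.8 and 42.3 CPM in WT, below the 4 untreated and the 4 2-week libraries. Rb1 fell by 0.69 at 20 weeks against untreated HSPCs (SE 0.14, edgeR adjusted p = 0.00129). Against 2 weeks it fell by 0.38 (SE 0.14, adjusted p = 0.0293), a call that was lost in 4 of the 8 fits that left out a library. With total counts as the sole scaling these values were -1.06 and -0.66.

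Rbl1 had 149 to 197 CPM in untreated HSPCs, 134 to 182 CPM at 2 weeks and 79.8 to 127 CPM at 20 weeks. It fell by 0.41 at 20 weeks against untreated HSPCs (SE 0.12, edgeR adjusted p = 0.0185), a call that was lost when any of 4 of the 8 libraries was left out, at -0.32 to -0.43: replicate 1 of the WT untreated and mutant 20-week groups, and replicate 2 of the mutant untreated and WT 20-week groups. Against 2 weeks it fell by 0.32 (SE 0.12, adjusted p = 0.0389), a call that held in 2 of 8 such fits. With total counts as the sole scaling Rbl1 stood at -0.77 against untreated and at -0.59 against 2-week HSPCs. Rbl2 had 116 to 139 CPM in untreated HSPCs, 84.6 to 98.03 CPM at 2 weeks and 80.8 to 100.5 CPM at 20 weeks. Rbl2 was not called at 20 weeks against untreated HSPCs, at -0.11 (SE 0.11, edgeR adjusted p = 0.494). It fell by 0.42 at 2 weeks against untreated HSPCs (SE 0.11, adjusted p = 0.00339) and was higher at 20 than at 2 weeks by 0.31 (SE 0.11, adjusted p = 0.0265), or by 0.03 (adjusted p = 0.847) with total counts as the sole scaling, and this call held in 3 of 8 fits that left out a library. Among these comparisons, the 5 calls of 2-week against untreated HSPCs held in all 8 fits that left out a library, against 4 of the 6 calls of 20-week against untreated and 3 of the 7 of 20-week against 2-week HSPCs.

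**Figure D3:**
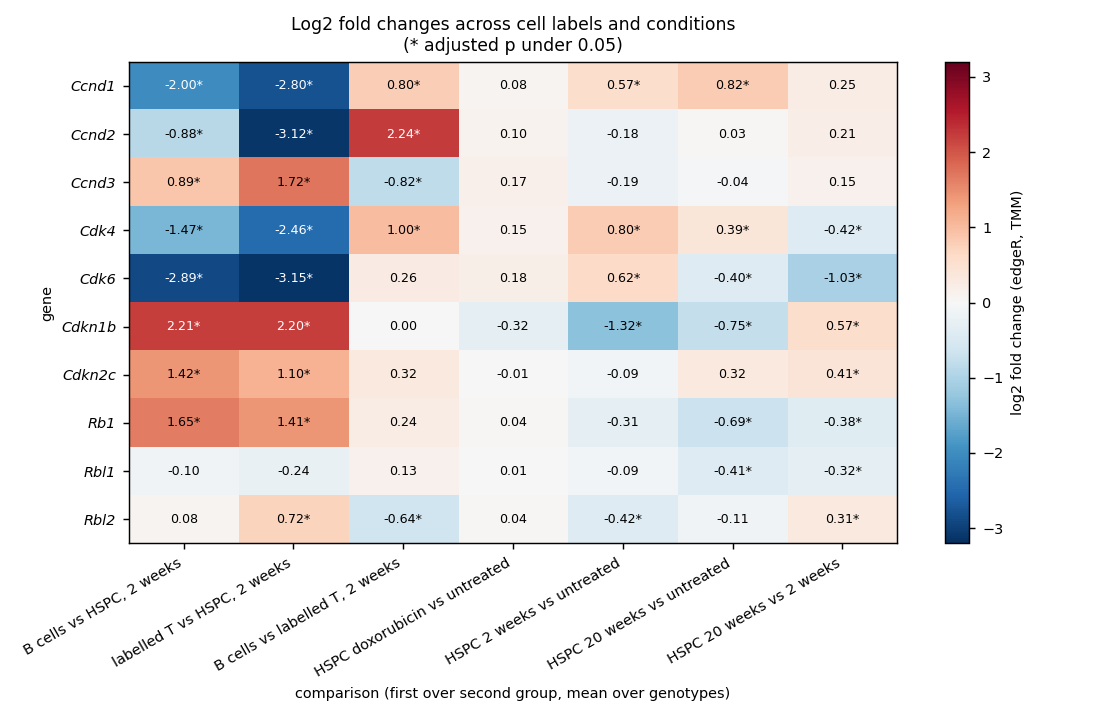
Log2 fold changes of the 10 genes (rows) in 7 comparisons across cell labels and conditions (columns), averaged over genotypes, with the first-named group over the second. An asterisk marks an edgeR adjusted p under 0.05 over all genes. Cdk6 reaches -2.89 in B cells and -3.15 in libraries labelled T cells, and the doxorubicin column holds no asterisk.

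B cells and libraries labelled T cells differed from each other in 5 members. Ccnd2 was higher in B cells by 2.24 (SE 0.093, edgeR adjusted p = 8.49e-11), Cdk4 by 0.995 (SE 0.11, adjusted p = 1.67e-06) and Ccnd1 by 0.80 (SE 0.16, adjusted p = 0.000652). Ccnd3 was lower in B cells by -0.82 (SE 0.15, adjusted p = 0.000448) and Rbl2 by -0.64 (SE 0.088, adjusted p = 2.17e-05). With total counts as the sole scaling Ccnd3 stood at -0.11 (adjusted p = 0.520), Rbl2 at 0.07 (adjusted p = 0.513), Cdk4 at 1.71, Ccnd1 at 1.51, and 8 members were higher in B cells and 0 lower. Of 19018 genes, that scaling called 9098 higher in B cells and 3100 lower.

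Several of these values changed with the scaling. Relative to the trimmed-mean (TMM) scaling used above, total counts alone moved the median log2 fold change of all genes by -0.81 in libraries labelled T cells against HSPCs, by 0.70 in B cells against libraries labelled T cells, by -0.35 in 20-week against untreated HSPCs, by -0.26 in 20-week against 2-week HSPCs and by -0.11 in B cells against HSPCs. In libraries labelled T cells against HSPCs the share of called genes that were higher was 52.6% and became 29.7%, with members at 3 higher and 5 lower. In B cells against libraries labelled T cells this share was 51% and became 74.6%. In 20-week HSPCs it was 55.3% against untreated and became 13.2%, with members at 1 higher and 6 lower, and it was 54.8% against 2-week HSPCs and became 35.2%, with members at 0 higher and 4 lower. Of 19018 genes, total counts alone called 3726 higher and 8799 lower in libraries labelled T cells against HSPCs. Of 19522 genes, total counts called 844 higher and 5542 lower in 20-week against untreated HSPCs. In 20-week against 2-week HSPCs, 3106 were called higher and 5717 lower. At 20 weeks immunoglobulin genes took 16.9% to 26.7% of counts, against 3.66% to 6.22% in untreated HSPCs, and 8 of 8 plasma cell markers were called higher, with summed levels of 11191 to 16955 CPM at 20 weeks against 3518 to 6941 CPM in untreated HSPCs. Their part in the members' differences was not tested.

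Doxorubicin, a DNA-damaging drug, left no member past the threshold. By edgeR 0 of 10 members were called between doxorubicin and untreated HSPCs and 0.0154% of all genes, and DESeq2 called 0 members. At an unadjusted p under 0.05 in edgeR stood 1163 of 19522 genes and 1 member. That member was Cdkn1b, at 65.2 to 138 CPM after doxorubicin against 108 to 124 CPM in untreated HSPCs, with a log2 fold change of -0.32 (SE 0.11, unadjusted p = 0.00915, adjusted p = 0.717). Both WT doxorubicin libraries, at 76.2 and 65.2 CPM, and mutant replicate 1, at 94.6 CPM, lie below the untreated range. Mutant replicate 2, at 138 CPM, lies above it.

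Of 36 other genes of the passage through G1 into S phase, chosen with earlier results of these data known, 35 were tested in HSPCs. At 2 weeks 10 rose and 5 fell against untreated HSPCs, where 46.1% of all genes were called, 21.2% higher and 24.9% lower. The 35 had a median log2 fold change of 0.14 against -0.14 over all genes. Ccne1, encoding cyclin E1, rose by 2.51 (SE 0.17, edgeR adjusted p = 3.17e-09), Mybl2 by 1.72 (SE 0.15, adjusted p = 5.04e-08), the repressive E2F E2f4 by 1.65 (SE 0.12, adjusted p = 8e-09) and the activating E2F E2f1 by 1.17 (SE 0.11, adjusted p = 1.45e-07). At 20 weeks 3 rose and 3 fell against untreated, where 23.6% of all genes were called, 13.1% higher and 10.6% lower. Among the called pathway genes were Cdk2, the partner of cyclin E, at -0.59 (SE 0.098, edgeR adjusted p = 0.000341), Foxm1 at -0.58, Ccne2 at -0.67 and, in the other direction, Mycn at 0.56. From 2 to 20 weeks 4 were higher and 15 lower at 20 weeks, where 42% of all genes were called, 23% higher and 19% lower. Ccne1 stood at -2.20, Mybl2 at -1.72, E2f4 at -1.47 and Mycn at 1.78.

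For the markers below, the shares of all genes called in each HSPC comparison are those given above. Of 26 markers of replication and mitosis, 25 rose at 2 weeks against untreated HSPCs and 0 fell, with a median of 0.86. At 20 weeks 4 rose and 5 fell against untreated HSPCs, with a median of 0.10, and 24 were lower than at 2 weeks and 0 higher, with a median of -0.83. Their summed level was 5284 to 7144 CPM in untreated HSPCs, 9002 to 11476 CPM at 2 weeks and 4065 to 4826 CPM at 20 weeks. These 3 ranges do not overlap in CPM, which carries no TMM scaling, unlike the calls and medians here. TMM factors, by which library sizes are multiplied, were 0.780 to 0.895 at 20 weeks and 1.071 to 1.095 in untreated HSPCs. Whether the 20-week and untreated sums differ after TMM scaling was not tested. Stem and progenitor markers moved as well, with 8 of 10 lower and 2 higher at 2 weeks than in untreated HSPCs, and sums of 1166 to 1594 CPM at 2 weeks against 2808 to 3563 CPM in untreated HSPCs. All 9 tested erythroid markers rose at 2 weeks, with sums of 1254 to 2160 CPM against 339 to 669.7 CPM in untreated HSPCs. Of the 8 megakaryocyte markers 6 rose at 2 weeks and 6 at 20 weeks against untreated HSPCs, the 2 times at which Ccnd1 was higher, with sums of 31.8 to 42.1 CPM in untreated HSPCs, 154 to 320.2 CPM at 2 weeks and 101 to 140.0 CPM at 20 weeks. Plasma cell markers fell at 2 weeks, 8 of 8, with sums of 579.7 to 1195 CPM. B cell markers fell in 6 of 10 and T cell markers in 5 of 10 at 2 weeks, while 1 of 10 neutrophil markers rose. At 20 weeks 8 of 10 neutrophil markers were lower than in untreated HSPCs. Their part in the members' differences was not tested.

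Between B cells and HSPCs, 34 of the 36 pathway genes were tested, and 13 were higher and 15 lower in B cells. Of all genes, 53.9% were called in this comparison, 28.3% higher and 25.5% lower. Myc, whose protein drives growth and cell cycle entry, was lower by -3.40 (SE 0.14, edgeR adjusted p = 1.36e-10), while the CDK4 and CDK6 inhibitor gene Cdkn2d was higher by 2.39 (SE 0.13, adjusted p = 1.96e-09), E2f2 by 3.15 and Foxm1 by 1.16. In libraries labelled T cells 10 were higher and 16 lower than in HSPCs, where 61.9% of all genes were called, 32.6% higher and 29.3% lower. Myc stood at -4.24, Cdkn2d at 3.47, E2f2 at 2.91 and E2f6 at -1.72. In B cells against libraries labelled T cells 18 were higher and 5 lower, where 52.9% of all genes were called, 27% higher and 25.9% lower. Genes are named here by smallest adjusted p, and those with a fold given are among the 5 lower. They are Tfdp1, a partner of E2F proteins, at -1.53, Cdc25a at -1.26 and Cdkn2d at -1.08. Mycn, which had no count in some libraries labelled T cells, is given without a fold. Replication and mitosis markers were 8 higher and 10 lower in B cells than in HSPCs, with a median of -0.07, and 3 higher and 17 lower in libraries labelled T cells, with a median of -0.38. These folds and calls use TMM scaling. Total counts as the sole scaling moved the median of all genes by -0.81 in libraries labelled T cells against HSPCs. In B cells against those libraries the shift was 0.70. Erythroid markers, with 9 of 10 detected, summed to 6967 to 18387 CPM in B cells and 3186 to 10483 CPM in libraries labelled T cells, against 1254 to 2160 CPM in 2-week HSPCs, and the neutrophil sums are given above. Their part in the members' differences was not tested.

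Between genotypes no member was called in any of the 6 comparisons within a cell label and condition. The share of all genes called by edgeR was 0.0154% after doxorubicin, 0% in untreated HSPCs, 0.138% at 2 weeks, 0.00512% at 20 weeks, 0.641% in B cells and 0.0114% in libraries labelled T cells. At an unadjusted p under 0.05 stood 1 member after doxorubicin, 0 in untreated and 2-week HSPCs, 2 at 20 weeks, 1 in B cells and 3 in libraries labelled T cells. Of 19522 genes, 1912 stood there after doxorubicin, 941 in untreated, 1711 in 2-week and 742 in 20-week HSPCs. Of 17484 genes, 1928 did in B cells and 1000 in libraries labelled T cells. DESeq2 called 1 member after doxorubicin, where it called 282 of 19522 genes. It called 0 members in the other 5 comparisons, where it called 20 to 337 genes.

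The member that DESeq2 called was Cdkn1b, the p27 gene, after doxorubicin. Mutant doxorubicin HSPCs had 94.6 and 138 CPM and WT ones 76.2 and 65.2 CPM, so that both mutant libraries lie above both WT libraries and 1 of them well above the other. The log2 fold change was 0.66 (SE 0.16, unadjusted p = 0.000575, edgeR adjusted p = 0.156), with a DESeq2 adjusted p of 0.0163 and an edgeR adjusted p of 0.0320 without the count filter. DESeq2 called 282 of 19522 genes and edgeR without the count filter 474 of 29524, against 3 of 19522 in the reported fit. Without mutant replicate 2 the log2 fold change was 0.38, and without mutant replicate 1 it was 0.90. Over the alternatives run the adjusted p lay between 0.0163 and 1. In untreated HSPCs the genotype difference of Cdkn1b was 0.12 (SE 0.16), from 124 and 118 CPM in mutants and 108 and 111 CPM in WT, and the difference between both effects was 0.54 (SE 0.22, unadjusted p = 0.0259, adjusted p = 1). B cell markers summed to 2297 and 2410 CPM in mutant and 1447 and 1836 CPM in WT doxorubicin HSPCs, and stem and progenitor markers to 2662 and 2507 CPM in mutants against 3555 and 3426 CPM in WT, with 10 of 10 detected in each case. Their part in the Cdkn1b difference was not tested. The next largest value after doxorubicin was Ccnd3 at 0.33 (SE 0.30, adjusted p = 0.777), or 0.15 to 0.54 with 1 library left out.

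Other conditions gave smaller differences relative to their errors. The largest were Cdk6 at 0.27 (SE 0.14, edgeR adjusted p = 1) and Ccnd3 at 0.25 (SE 0.30, adjusted p = 1) in untreated HSPCs, and Ccnd3 at 0.38 (SE 0.30, adjusted p = 0.761) and Cdkn2c at 0.36 (SE 0.22, adjusted p = 0.651) at 2 weeks. Both mutant untreated libraries had more Cdk6 than both WT ones. Ccnd3 overlapped between genotypes in untreated and 2-week HSPCs, and with 1 library left out it ran from 0.015 to 0.48 in untreated and from 0.086 to 0.73 in 2-week HSPCs, as Cdkn2c did from 0.10 to 0.68 at 2 weeks.

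At 20 weeks the largest genotype differences were those of Rb1 and Rbl1. Rb1 had 25.8 and 36.6 CPM in mutants and 45.8 and 42.3 CPM in WT, a log2 fold change of -0.52 (SE 0.19, unadjusted p = 0.0143, edgeR adjusted p = 1). Without mutant replicate 2 it was -0.86, and without mutant replicate 1 it was -0.24. Rbl1 had 79.8 and 98.2 CPM in mutants and 127 and 101 CPM in WT, at -0.38 (SE 0.17, unadjusted p = 0.0397, adjusted p = 1), or -0.60 without mutant replicate 2 and -0.19 without mutant replicate 1. Both mutant libraries lie below both WT libraries in each gene. The mutant effect at 20 weeks minus that in untreated HSPCs was -0.64 for Rb1 (SE 0.27, unadjusted p = 0.0283, adjusted p = 1) and -0.57 for Rbl1 (SE 0.24, unadjusted p = 0.0287, adjusted p = 1). Immunoglobulin genes took 16.9% to 26.7% of counts over these 4 libraries.

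In B cells the largest genotype difference was that of Ccnd1, at 12.7 and 14.3 CPM in mutants against 21.3 and 24.6 CPM in WT, with a log2 fold change of -0.76 (SE 0.27, unadjusted p = 0.0131, edgeR adjusted p = 0.286). Cdkn2c followed at -0.19 (SE 0.14, adjusted p = 0.683). In libraries labelled T cells Ccnd1 had 3.34 and 5.37 CPM in mutants against 7.27 and 10.3 CPM in WT, at -0.95 (SE 0.28, unadjusted p = 0.00415, adjusted p = 0.617), and Ccnd2 had 16.2 and 18.5 CPM against 22.9 and 26.7 CPM, at -0.45 (SE 0.12, unadjusted p = 0.003, adjusted p = 0.571). Without WT replicate 2 these values were -0.60 for Ccnd1 and -0.26 for Ccnd2, and without mutant replicate 1 they were -0.60 and -0.31. Both mutant libraries lie below both WT libraries in each case. In B cell libraries the neutrophil markers summed to 8355 and 3500 CPM in mutants against 8201 and 12496 CPM in WT, the monocyte and macrophage markers to 1175 and 651 CPM against 1333 and 1871 CPM, and 3 of 8 of the monocyte and macrophage markers were called lower in mutants. In libraries labelled T cells the B cell markers summed to 469 and 431 CPM in mutants against 495 and 686 CPM in WT. Erythroid markers there summed to 6869 and 3186 CPM in mutants against 10483 and 6053 CPM in WT. Neutrophil markers ran the other way, at 144714 and 152568 CPM against 133563 and 137859 CPM. None of these markers was called between genotypes in libraries labelled T cells. The part of such markers in the Ccnd1 and Ccnd2 differences was not tested.

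**Figure D4:**
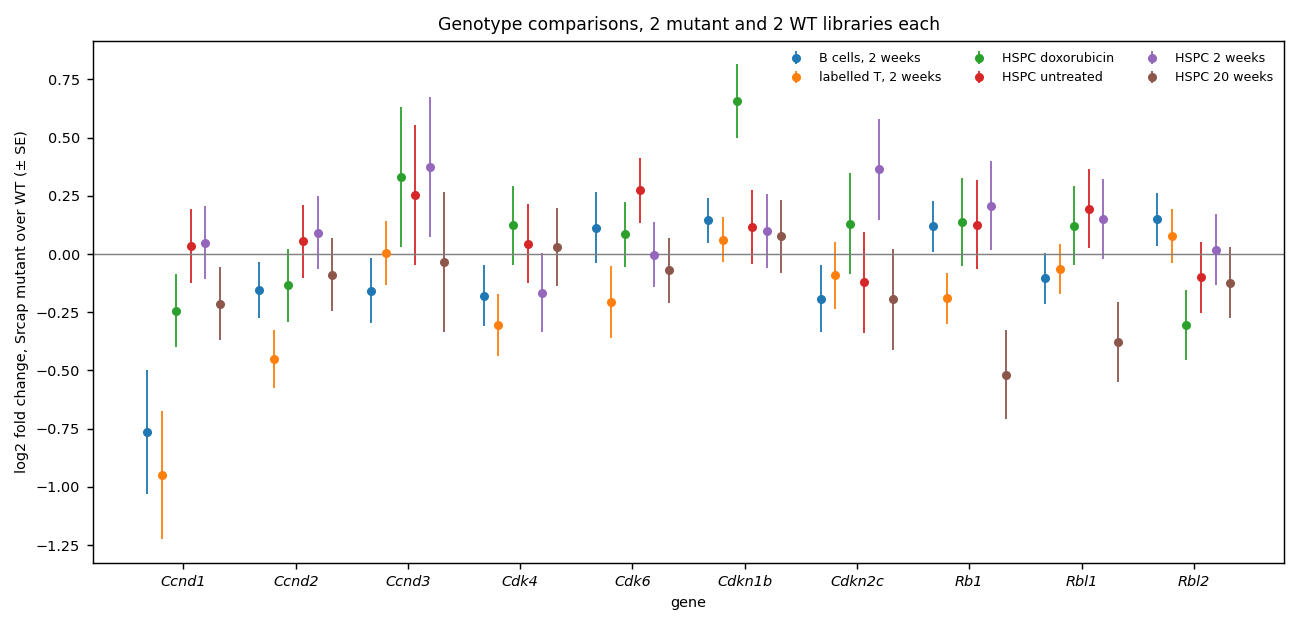
Log2 fold changes of Srcap mutant over WT on the y axis, for the 10 genes on the x axis, in 6 comparisons shown by colour, each of 2 mutant with 2 WT libraries. Points are estimates and bars ± SE. Ccnd1 in B cells (-0.76) and in libraries labelled T cells (-0.95) and Cdkn1b after doxorubicin (0.66) lie farthest from 0, and none passed the threshold in edgeR.

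Averaged over the 4 HSPC conditions, 0 of 10 members were called between genotypes by edgeR, where 0.133% of all genes were called, and 0 by DESeq2. At an unadjusted p under 0.05 in edgeR stood 1 member and 1929 of 19522 genes. Cdkn1b had the largest value, 0.24 (SE 0.079, unadjusted p = 0.00759, edgeR adjusted p = 0.294). Its values were 0.66 after doxorubicin, 0.12 in untreated HSPCs, 0.10 at 2 weeks and 0.08 at 20 weeks, each with an SE of 0.16. Its libraries overlapped between genotypes at 2 and 20 weeks. Ccnd3 followed at 0.23 (SE 0.15) and Rbl2 at -0.13 (SE 0.076). Ccnd1 stood at -0.09 (SE 0.079), Cdk6 at 0.07 (SE 0.070), Cdkn2c at 0.04 (SE 0.11), Rbl1 at 0.02 (SE 0.086), Cdk4 at 0.01 (SE 0.085), Rb1 at -0.01 (SE 0.096) and Ccnd2 at -0.02 (SE 0.078). The median over the 10 was 0.02, against -0.01 over all genes, and no other pathway gene of the 35 tested was called.

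Of the 9 differences of the mutant effect between conditions or cell labels that were tested, none called a member by edgeR, with 1 member at an unadjusted p under 0.05 for doxorubicin, 0 for 2 weeks and 2 for 20 weeks, each against untreated HSPCs, and 8 values in the other 6. The 3 against untreated HSPCs called 0% of all genes, with 550, 1432 and 910 genes at an unadjusted p under 0.05 for doxorubicin, 2 and 20 weeks. The other 6 were added after seeing the data. Each of these called 0 to 3 of all genes, with 1081 to 2134 genes at an unadjusted p under 0.05. DESeq2 called 0 members in the 3 against untreated HSPCs.

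The genes whose levels ran most like each member's over the 16 HSPC libraries were found by Pearson's r of log2(CPM + 1) over 10913 genes with a mean of at least 5 CPM. Libraries of 1 condition share a directory and fall together, so these values describe the set and carry no test. Cdk6 was most like Pold3 (0.99), Pmm2 (0.98) and Bora (0.97), and Cdk4 most like Slc25a5 (0.98), Ncaph2 (0.98) and Bud23 (0.97). Cdkn1b was most like Gt(ROSA)26Sor (0.98), Mndal (0.98) and Rpgrip1 (0.97). Among the cyclins, Ccnd1 was most like Sec24d, Mt1 and Vwf (0.90, 0.90 and 0.89), Ccnd2 most like Hif1a, Sp1 and Atp2b4 (0.98, 0.97 and 0.97) and Ccnd3 most like the pre-B cell genes Vpreb1 and Igll1 and Bcat1 (0.92, 0.91 and 0.92). Rb1 was most like Cnot6, Ctcf and Hnrnph2 (0.98, 0.97 and 0.97), Rbl1 most like Gtf3c3, Rif1 and Atad2 (each 0.97), and Rbl2 most like Btbd7, Smurf2 and Prkacb (each 0.97). Cdkn2c had no gene above 0.75, which it reached with Prkcb, before Sema3g (0.72).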

How the data were processed

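The values are raw fragment counts per gene, deposited by the authors from featureCounts v2.0.1 on paired, reverse-stranded reads with the GENCODE M28 annotation, 1 file per library, per the file headers. STAR and FastQC are named, with no version, and both mm10 and mm39, per the submitters' processing notes; how reads were aligned is not stated there. The labels' protocols name 30000 sorted HSPCs for every library, those labelled B and T cells included. Symbols came from a GENCODE M21 table (52081 of 55414 IDs, which hold 99.9% of counts).

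HSPC libraries (19522 genes), B and T labelled libraries (17484) and all 2-week libraries (19018) were fitted separately in edgeR 4.0.16 (R 4.3.3) with its robust quasi-likelihood test, a mean for each group, TMM scaling and filterByExpr (minimum count 10, total 15); comparisons across conditions or cell labels average genotypes. A gene was called at an adjusted p (Benjamini-Hochberg, over every gene tested) under 0.05, and SE is the log2 fold change over the root of F. The edgeR test was tried on simulated data for mutant against WT, in untreated HSPCs and in B cells. It was also tried for 2-week against untreated HSPCs and for B cells against HSPCs, but not for the other comparisons. Alternatives were RLE size factors, no count filter, DESeq2 1.42.0, the replicate number as a block, a fit on just the compared groups and leaving out each library in turn; total counts as sole scaling, a crossed block and 6 further differences of effects were added after seeing the data.

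Members, gene lists and the rule for named genes were chosen with earlier results of these data known. The rule names the called members of each comparison, or the 2 largest where none was called between genotypes, up to 4 called pathway genes with the smallest adjusted p, and the 3 most alike genes, of which 1 is not reported here.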

Additional observations from a re-analysis of the deposited data

How the results depend on the processing

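Of the counts of called members under alternatives, 210 stayed within 1.5 times the count reported and 10 did not. Members called between genotypes after doxorubicin were 0, and 1 with no count filter and 1 with DESeq2, both times Cdkn1b. With no count filter 474 of 29524 genes were called, and with DESeq2 282 of 19522. At 20 weeks the members called changed with the library left out, and the log2 fold change of Rb1 ran from -0.86 to -0.24 over these fits. Between 20-week and 2-week HSPCs 7 members were called, against 3 with the compared groups alone, 4 with total counts as sole scaling and 3 to 6 over the libraries left out: 4 without WT 20-week replicate 2, without WT 2-week replicate 1 or without WT 2-week replicate 2, and 3 without mutant 2-week replicate 1. Between B cells and libraries labelled T cells total counts called 8 members instead of 5, and 12198 instead of 10060 of 19018 genes. Total counts also turned Rbl2 to -0.12 in libraries labelled T cells against HSPCs and to 0.070 in B cells against those libraries, and over the 4 conditions Ccnd2 to 0.0016 and Rb1 to 0.0074. The cause was not tested. Of genes called between genotypes, 66.7% after doxorubicin and 50% in libraries labelled T cells were higher in mutants, against 100% and 33.3% with total counts.

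Over the libraries left out, mean genotype differences near 0 changed sign: Ccnd2 ran from -0.090 to 0.041, Cdk4 from -0.043 to 0.053, Cdkn2c from -0.020 to 0.12, Rb1 from -0.097 to 0.057 and Rbl1 from -0.060 to 0.081. Of single values under alternatives 805 kept direction and side of the threshold, 40 lost a call, 3 gained one and 24 changed sign. Where leaving one out left a single library in its group, its spread was taken to be that of the other groups.

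Replicate numbers are shared between genotypes, but those in the file headers differ from the labels for some libraries, and same-numbered libraries deviated together at -0.15 to 0.16, so libraries were not paired. The replicate block called 0 members in each genotype comparison, as did a crossed block for doxorubicin and 2 weeks; between B cells and libraries labelled T cells the block called 6. A fit on just the compared groups is the reported one for the mean over 4 conditions and was not run for cell labels. With 2 libraries a group, small differences between genotypes were not detectable here.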
